A study of Mus musculus with 6 samples.

Results

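The 10 genes described here belong to the brain's extracellular matrix and were measured in cells of young mice sorted as cortical neurons. They were the lecticans Ncan, Bcan, Vcan and Acan, the tenascins Tnc and Tnr, the link protein genes Hapln1, Hapln2 and Hapln4, and the receptor-type proteoglycan Ptprz1. They were chosen by symbol, and all 10 had a row among the 22544 genes of the authors' deposited table. The RNA came from cells of Swiss Webster mice sorted as upper-layer cortical neurons by their GFP (green fluorescent protein) signal. They were sorted at postnatal day 3 (P3) or 5 (P5), with 3 biological replicates per age and 6 samples in all. Markers of glia and other cells were also present in these sorts, as given below, so the levels cannot be credited to neurons alone. No treatment other than age separates the groups, and how the cells came to carry GFP is not given in the sources used here. Expression is in FPKM (fragments scaled to transcript length and library total), as 1 value per age that the authors pooled over the replicates, so no value per sample is shown and the depth is unknown.

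The brain's matrix contains little fibrous collagen and is built on hyaluronan, a long sugar polymer made at the cell surface. Lecticans are chondroitin sulfate proteoglycans whose N-terminal domain binds hyaluronan, link proteins hold that bond in place, and tenascins tie the C-terminal ends of lecticans together. The same parts later condense around some neurons as perineuronal nets, while in the newborn cortex the matrix is looser and is known for guiding migration and axon growth. Glia make much of it.

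Ptprz1, Tnc, Bcan and Vcan were well expressed at both ages and Ncan at P3, whereas Acan, the lectican of perineuronal nets, was below 1 FPKM at both ages. Hapln2 at both ages, and Hapln4 at P3, were listed at 0 with the status NOTEST, meaning that Cuffdiff ran no test. These zeros are taken as listed and, with depth unknown, do not show that the genes were silent. Ncan was the most abundant member at P3 with 2157 FPKM, followed by Ptprz1 at 106, Tnc at 47.3, Bcan at 31.4 and Vcan at 21.0 FPKM. Tnr at 2.21, Hapln1 at 0.912 and Acan at 0.0563 FPKM lay far below these, while Hapln2 and Hapln4 were listed at 0. At P5 the order was Ptprz1 (125 FPKM), Bcan (60.8), Tnc (49.2), Vcan (21.6), Hapln1 (5.54), Tnr (3.02), Acan (0.609) and Hapln4 (0.464), with Hapln2 again listed at 0 and Ncan without an estimate. Bcan and Tnc thus exchanged places between the ages, as did Hapln1 and Tnr. The pooled values carry no spread for a single level, so it was not tested whether neighbours in these orders differ. FPKM of at least 1 was reached by 6 of the 10 genes at P3 and by 6 of the 9 with an estimate at P5.

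**Figure D1:**
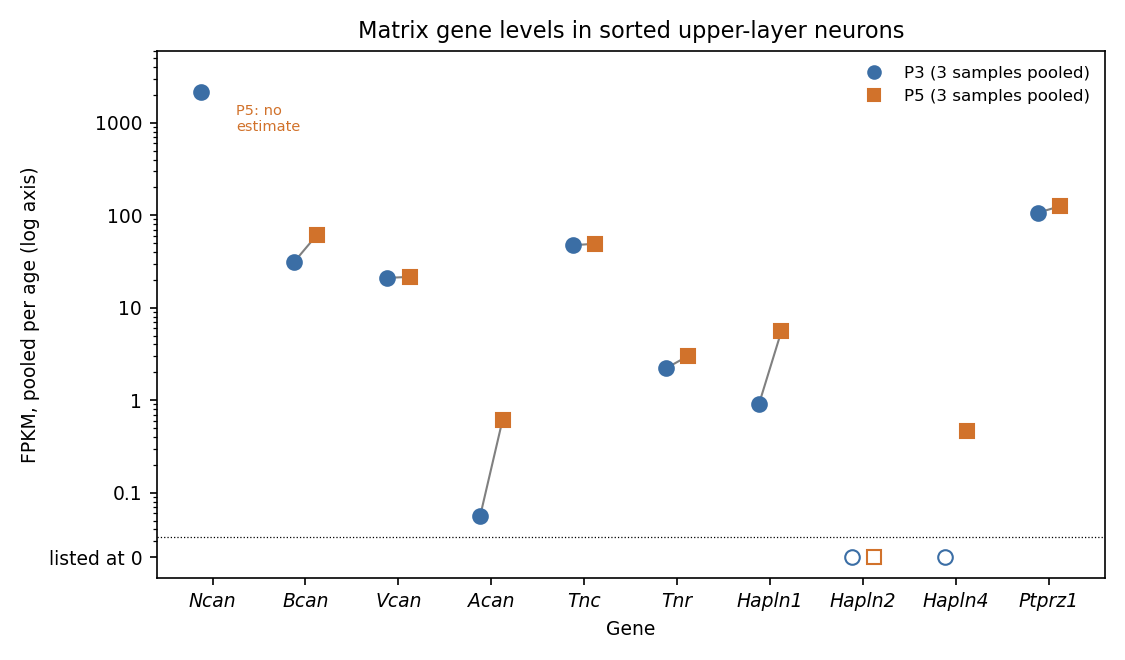
FPKM of the 10 matrix genes (log axis) at P3 (blue circles) and P5 (orange squares), each point 1 value that the authors pooled from 3 samples, without an error bar; open symbols are genes listed at 0. Ncan stands at 2157 FPKM at P3 without an estimate at P5, and the open symbols of Hapln2 and Hapln4 mark listed zeros, which do not show that the genes were silent.

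None of the matrix genes differed between P3 and P5 by the authors' Cuffdiff test at q = 0.05. Cuffdiff called 0 of the 7 matrix genes that it tested, against 0% of all 12865 tested genes, where no deposited q lay below 0.999988. An unadjusted p under 0.05 was found for 0 of the 7, beside 0.77% of all tested genes (99). Ncan, Hapln2 and Hapln4 were not tested. The FPKM was higher at P5 in 7 of 7 tested genes, beside 55.6% of the 12313 tested genes with FPKM above 0 at both ages, but the median log2 ratio of those genes was itself 0.13, and relative to it 5 of the 7 were higher and Tnc and Vcan were lower. The median log2 ratio of P5 over P3 was 0.45 over the 7. A log2 ratio of at least 1 was found for 2 of the 7, Acan and Hapln1, beside 23.9% of the 12313. Every one of the 7 intervals spanned 0, with standard errors (SE) from 1.07 to 3.10 on the log2 scale. With these errors even a change of several fold was not detectable by this test in these genes. The errors may be too wide, since the 0.77% of all tested genes with p under 0.05 is less than a calibrated test gives with no change.

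**Figure D2:**
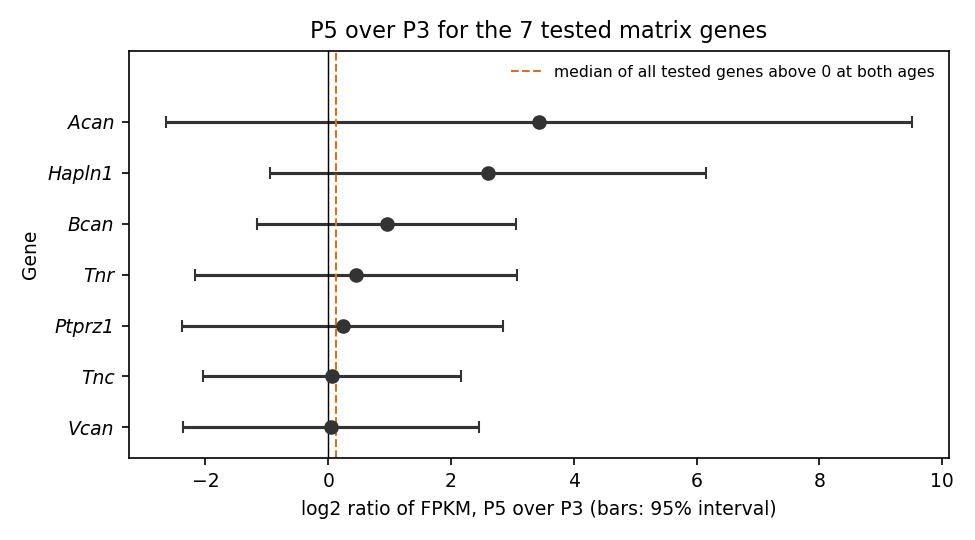
Log2 ratio of FPKM, P5 over P3, for the 7 tested matrix genes (points) with 95% intervals from the authors' test statistic (bars). The intervals of all 7 include 0; the dashed line is the median of all tested genes above 0 at both ages, 0.13, and Tnc and Vcan lie just below it.

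Among the lecticans, Ncan encodes neurocan, a secreted proteoglycan of the developing brain that binds hyaluronan and the adhesion molecules NCAM and L1. Its locus is mm9 chromosome 8, 72616984 to 72644743. Its 2157 FPKM at P3 ranked 6 at that age, Actb and Malat1 having no estimate to rank, and was 68.7 times the level of Bcan and 20.3 times that of Ptprz1. At P5 the table lists 0 with the status HIDATA, which Cuffdiff gives to a locus with too many fragments to process, and this 0 is no estimate of expression. No ratio, error or test exists for Ncan, and the P3 value comes from the same untested row. HIDATA was given to 3 genes in all. The others were Actb, the beta-actin gene, listed at 0 at both ages, and the nuclear RNA Malat1, listed at 0 at P3 and at 1308 FPKM at P5. At P3, the age with an estimate, Ncan made up 97.6% of the summed lectican FPKM of 2210.

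Bcan encodes brevican, a small lectican almost restricted to the nervous system, where astrocytes and oligodendrocyte precursors make it and where it collects around synapses. It lies at mm9 chromosome 3, 87791453 to 87804278. FPKM values of 31.4 (P3) and 60.8 (P5) gave a log2 ratio in the authors' deposited table of 0.95 (SE 1.08, 95% interval -1.16 to 3.06, p = 0.378). Among the members that reached 5 FPKM at both ages, this was the highest ratio, and it did not pass the test. Vcan encodes versican, a large lectican of growing tissues and oligodendrocyte precursors (mm9 chromosome 13, 89794915 to 89882117). It had 21.0 and 21.6 FPKM, and its log2 ratio in the authors' deposited table was 0.04 (SE 1.23, 95% interval -2.37 to 2.45). Bcan was thus at 1.497 times the level of Vcan at P3 and at 2.82 times at P5, a difference between the genes that was not tested.

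Acan encodes aggrecan, the bulky lectican of cartilage and the core of perineuronal nets (mm9 chromosome 7, 86198369 to 86259985). It was at 0.0563 FPKM at P3 and 0.609 FPKM at P5, higher than only 5.24% and 5.74% of the tested genes at those ages. The log2 ratio in the authors' deposited table was 3.43 with an SE of 3.10 (95% interval -2.64 to 9.51, p = 0.268), the widest interval of the 7. With 1 FPKM added to both values it was 0.61. Without Ncan, the summed FPKM of the lecticans was 52.5 at P3 and 82.9 at P5, nearly all of it from Bcan and Vcan.

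Tnc encodes tenascin-C, a many-armed glycoprotein of radial glia and young astrocytes, and Tnr encodes tenascin-R, a smaller relative of the central nervous system that oligodendrocyte lineage cells and some neurons make. Tnc (mm9 chromosome 4, 63620819 to 63708049) was at 47.3 and 49.2 FPKM, with a log2 ratio of 0.06 in the authors' deposited table (SE 1.07, 95% interval -2.05 to 2.16). Tnr (mm9 chromosome 1, 161453900 to 161855053) had 2.21 and 3.02 FPKM, with a log2 ratio of 0.45 (SE 1.34, 95% interval -2.17 to 3.07, Cuffdiff p = 0.737) in the authors' deposited table. The level of Tnc was 21.4 times that of Tnr at P3 and 16.3 times at P5, which makes Tnc the more abundant tenascin at both ages.

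Ptprz1 encodes a receptor tyrosine phosphatase that carries chondroitin sulfate. Its shed or secreted extracellular part is phosphacan, and a table by gene does not separate these forms. The gene (mm9 chromosome 6, 22825502 to 23002916) was at 106 and then 125 FPKM, above 96.4% and 97.2% of the tested genes. The log2 ratio in the authors' deposited table was 0.24 (SE 1.33, 95% interval -2.38 to 2.85, p = 0.860). Ptprz1 was at 3.38 times the level of Bcan at P3 and 2.06 times at P5.

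Of the 3 link protein genes, only Hapln1 was tested. Hapln1, whose product stabilises lecticans on hyaluronan in cartilage and in perineuronal nets (mm9 chromosome 13, 89680241 to 89751437), was at 0.912 FPKM and then at 5.54. Its p of 0.152 was the lowest among the 7 tested matrix genes, with a log2 ratio of 2.60 in the authors' deposited table (SE 1.81, 95% interval -0.95 to 6.16), and with 1 FPKM added to both values the ratio was 1.77. Hapln2, known from nodes of Ranvier on myelinated axons (mm9 chromosome 3, 87825672 to 87831433), was listed at 0 at both ages. Hapln4, known from perineuronal nets of the brainstem and cerebellum (mm9 chromosome 8, 72607428 to 72614761), was listed at 0 at P3 and at 0.464 FPKM at P5. Cuffdiff gave both the status NOTEST, and no fold is given.

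Each lectican gene lies beside a link protein gene in the deposited mm9 loci, with 0 other genes of the table between them in all 4 cases. The gap was 2222 bases between Ncan and Hapln4, 21393 between Bcan and Hapln2, 43477 between Vcan and Hapln1, and 1927 between Acan and Hapln3, the link protein gene that is not among the 10. Levels of neighbours could be compared at only 2 of the 4 loci, since Hapln2, and Hapln4 at P3, are listed at 0 and Ncan has no estimate at P5. Vcan was 23.0 times as abundant as Hapln1 at P3 and 3.89 times at P5. At the locus of Acan the order was the opposite, since Hapln3 had 0.524 and 2.75 FPKM beside 0.0563 and 0.609 for Acan. The loci of the 10 genes overlap 0 other rows of the table, so reads shared with an overlapping listed gene do not enter these values.

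**Figure D3:**
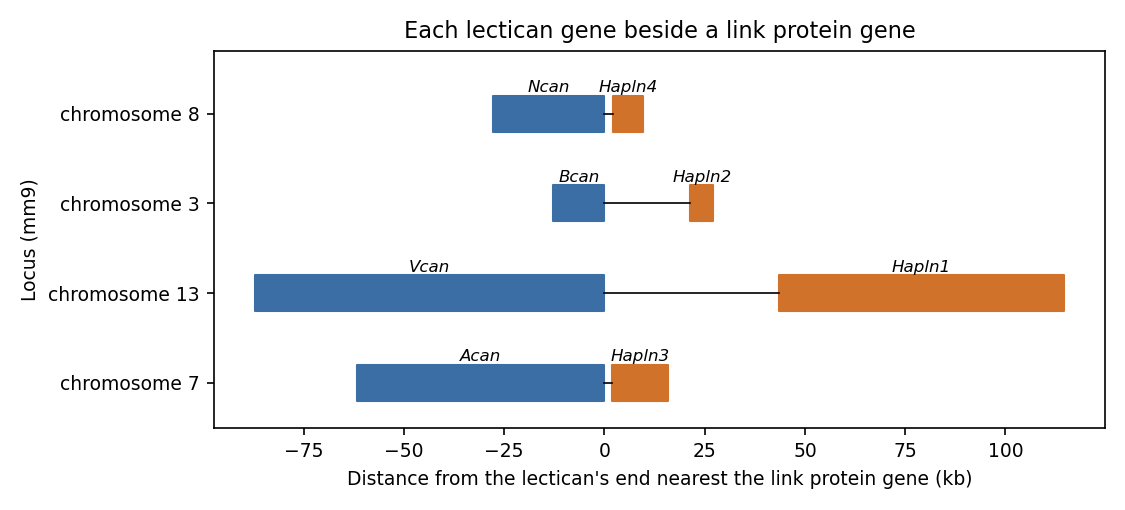
The 4 lectican genes (blue bars) and the link protein genes beside them (orange bars) drawn to scale from the deposited mm9 loci, as distance in kb from the lectican's end that faces the link protein gene. The gaps run from 1.93 kb at Acan and Hapln3 to 43.5 kb at Vcan and Hapln1.

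The bases before the transcript start of 4 members are shown because they are the most and the least abundant lectican at P3, Ncan and Acan, and the more and the less abundant tenascin, Tnc and Tnr. They come from RefSeq on GRCm38.p6, a newer build than that of the deposited loci, in which 9 of the 10 genes had an entry, all but Hapln4. Bases inside the RefSeq gene were left out, which leaves 231 for Ncan (chr8:70120864-70121094, minus strand), 250 for Acan (chr7:79052976-79053225, plus strand), 250 for Tnc (chr4:64047016-64047265, minus strand) and 210 for Tnr (chr1:159523519-159523728, plus strand). Capitals mark the GC box GGGCGG, the TATA box TATAAA and the CCAAT box on either strand:
Ncan: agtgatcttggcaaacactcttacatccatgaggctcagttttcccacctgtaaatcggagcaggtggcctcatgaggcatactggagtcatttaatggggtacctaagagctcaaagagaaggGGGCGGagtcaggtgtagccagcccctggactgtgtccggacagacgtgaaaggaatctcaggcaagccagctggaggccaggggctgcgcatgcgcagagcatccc
Acan: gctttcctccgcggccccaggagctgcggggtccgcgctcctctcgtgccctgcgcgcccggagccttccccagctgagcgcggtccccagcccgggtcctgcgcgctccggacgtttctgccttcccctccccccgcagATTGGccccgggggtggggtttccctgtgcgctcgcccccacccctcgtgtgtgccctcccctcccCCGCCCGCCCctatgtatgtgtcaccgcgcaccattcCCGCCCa
Tnc: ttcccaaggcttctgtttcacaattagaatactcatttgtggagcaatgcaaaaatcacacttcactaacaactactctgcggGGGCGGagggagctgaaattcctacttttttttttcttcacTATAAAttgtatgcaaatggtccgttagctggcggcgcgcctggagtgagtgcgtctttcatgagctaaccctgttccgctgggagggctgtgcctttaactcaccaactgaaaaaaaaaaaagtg
Tnr: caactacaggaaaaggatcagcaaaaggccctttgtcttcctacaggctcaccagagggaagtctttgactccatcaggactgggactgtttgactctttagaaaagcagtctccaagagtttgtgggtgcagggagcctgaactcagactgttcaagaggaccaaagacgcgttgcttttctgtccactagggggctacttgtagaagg
Ncan held 1 GC box and Tnc 1 GC box and 1 TATA box, while Acan held 3 GC boxes, 2 of which adjoin with shared bases, and 1 CCAAT box. Tnr held none of these letters in its window. Of all 32851 RefSeq windows cut to 250 bases, 32.7% hold the GC box letters, 12.4% the TATA box letters and 33.8% the CCAAT box letters, and 30.0% of those cut to 231 bases, as for Ncan, hold the GC box letters. Acan, the least abundant lectican, had 26 CG dinucleotides, more than 90.4% of windows of that length, against 8 for Tnc, 6 for Ncan and 2 for Tnr. These matches describe the letters and are no measure of binding.

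Genes that act with the 10 were read from 5 lists, and Cuffdiff, run by the authors, called 0 genes in each at q = 0.05. The list of other proteoglycans and family members had 24 tested of 27, 19 higher and 5 lower at P5, with a median log2 ratio of 0.76 beside 0.13 for all genes; 0 had an unadjusted p under 0.05. Its most abundant members were the heparan sulfate proteoglycan Sdc4 (162 and 278 FPKM), the neural proteoglycan Cspg5 (109.7 and 99.1 FPKM) and the amyloid precursor gene App (71.8 and 112 FPKM). The smallest p here, from the authors' deposited table, were those of Srgn, a proteoglycan of blood cell granules (0.0626 and 6.36 FPKM, p = 0.0601), and of Cspg4, the NG2 proteoglycan of oligodendrocyte precursors and pericytes (0.878 and 4.54 FPKM, p = 0.107).

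Ligands and receptors of the matrix had 27 tested genes of 31, with 20 higher and 7 lower at P5 and a median log2 ratio of 0.44. The pleiotrophin gene Ptn and the midkine gene Mdk, whose products bind Ptprz1, were abundant at both ages, Ptn with 396 and 417 FPKM and Mdk with 204 and 148 FPKM. Ncam1, an adhesion partner of neurocan and phosphacan, had 1516 and 805 FPKM with a log2 ratio of -0.91 and an SE of 11.6 in the authors' deposited table, too wide to compare the ages. Rtn4r, the Nogo receptor, which also binds chondroitin sulfate chains, had 0.0138 and 4.69 FPKM. Its log2 ratio of 8.41 (SE 3.65) rests on a P3 value close to 0. Rtn4r was the only gene of the 5 lists with an unadjusted p under 0.05 (p = 0.0212 in the authors' deposited table, Cuffdiff). That is 1 of the 27 tested genes of its own list, beside 0.77% of all tested genes. Fbln1, a fibulin that binds lectican ends, had 0.451 and 2.50 FPKM (p = 0.183 in the authors' deposited table, Cuffdiff).

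Enzymes of chondroitin sulfate synthesis had 23 tested genes of 26, with 16 higher and 7 lower at P5 and a median log2 ratio of 0.59. The 2 with the lowest p were lower at P5. Csgalnact2, which starts the chain, had 11.8 and 3.91 FPKM with a log2 ratio of -1.60 (SE 1.04, p = 0.124) in the authors' deposited table, and Dsel, an epimerase that makes dermatan sulfate, had 6.001 and 2.43 FPKM (p = 0.241). The most abundant enzyme was the chain-extending Chsy1 with 305 and 159 FPKM, a log2 ratio of -0.94 (SE 1.46) in the same table. Papss1, which supplies the sulfate donor, was at 50.2 and 47.1 FPKM, and Ugdh, which makes the glucuronic acid donor, at 16.1 and 31.6.

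The hyaluronan list had 18 of its 19 genes in the table and 13 tested, of which 12 had FPKM above 0 at both ages, 9 higher and 3 lower at P5. Its median log2 ratio was 1.21, and 0.70 over genes of at least 1 FPKM at either age; 0 had an unadjusted p under 0.05. The most abundant were the hyaluronidase Hyal2 (10.8 and 14.6 FPKM), the hyaluronan-binding Tnfaip6 (9.17 and 9.02) and Tmem2, tied to hyaluronan breakdown at the cell surface (7.27 and 5.87). The hyaluronan receptors Cd44 (0.988 and 7.97 FPKM, p = 0.140) and Lyve1 (1.52 and 9.74 FPKM, p = 0.165) had the lowest p in the authors' deposited table. The synthase genes, named after their values were seen, were low, with Has1 at 0.0937 and 0.0997, Has2 at 0.236 and 1.57 and Has3 at 0.161 and 0.717 FPKM.

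Matrix proteases and their inhibitors had 18 tested genes of 23, and 17 of them had FPKM above 0 at both ages, 10 higher and 7 lower at P5, with a median log2 ratio of 0.64. Adamts4, a protease that cuts lecticans, was at 2.54 and 0.266 FPKM, with a log2 ratio of -3.26 (SE 2.16, p = 0.131) in the authors' deposited table. Serpine2, the inhibitor protease nexin, had 68.8 and 203 FPKM with a log2 ratio of 1.56 (SE 0.91, p = 0.0862) in the authors' deposited table. The tissue plasminogen activator gene Plat had 22.1 and 49.0 FPKM and the metalloprotease inhibitor gene Timp2 16.0 and 29.3 FPKM. In this list too, 0 genes had an unadjusted p under 0.05.

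**Figure D4:**
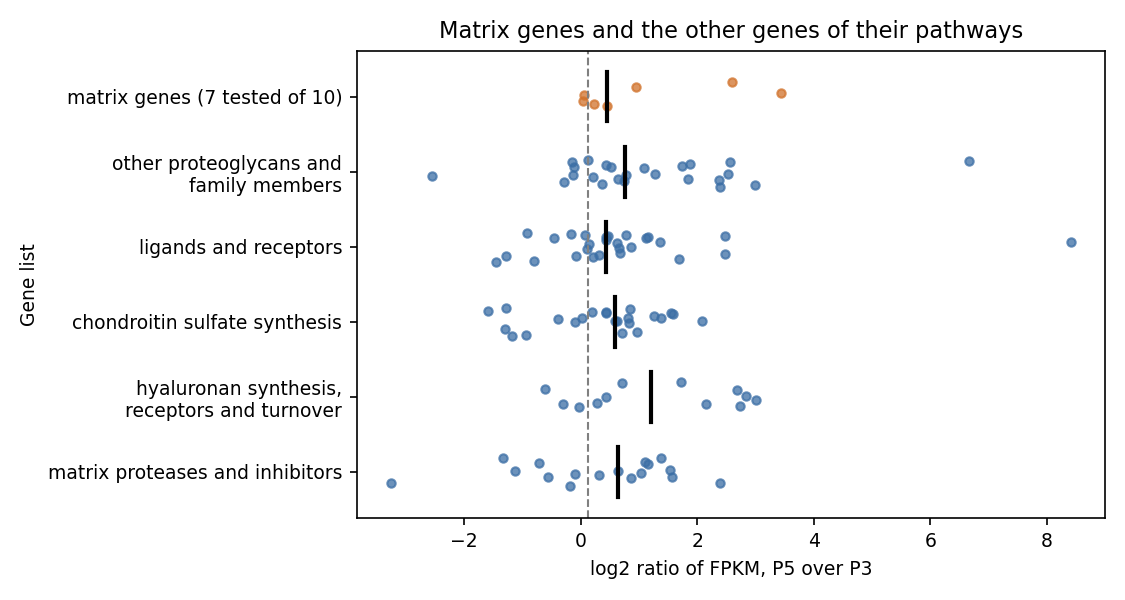
Log2 ratio of FPKM, P5 over P3, of each tested gene above 0 at both ages (points, spread vertically at random) in the matrix genes (orange) and the 5 lists of partner genes (blue), with each list's median as a black bar. The medians run from 0.44 to 1.21, to the right of the dashed line, the median of all genes at 0.13; 0 genes passed the authors' Cuffdiff test at q = 0.05.

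Markers of cells other than upper-layer neurons were present at both ages, and in pooled bulk values more cells of a type and more RNA per cell cannot be told apart. The 8 upper-layer neuron markers were all above 0 and summed to 471 FPKM at P3 and 476 at P5, with 3 higher and 5 lower at P5. Mef2c (156 and 226 FPKM) and Rorb (119 and 152) led this list, and the other 6 summed to 196 and 98.98 FPKM. The 10 astrocyte markers summed to 2628 and 3155 FPKM, 8 of 10 higher at P5 and 0 listed at 0. Slc1a3 (1088 and 758 FPKM) and Aldoc (767 and 773) led this list, and the other 8 summed to 773 and 1623 FPKM. Sums over different genes say nothing of the share of each cell type, since the lists differ in how abundant their genes are, so each is read only between ages. The 8 radial glia markers summed to 5570 and 4399 FPKM, 7 of 8 lower at P5, with Fabp7 alone at 5388 and 4272. The 5 oligodendrocyte precursor markers summed to 113 and 157 FPKM, 5 of 5 higher, and the 7 oligodendrocyte markers to 38.7 and 171 FPKM, with Mag and Mog listed at 0 at P3. The 9 interneuron markers summed to 252 and 512 FPKM, mostly from Npy (155 and 356) and Sst (30.1 and 95.6). The other 7 summed to 67.9 and 59.8 FPKM, and of 8 tested markers 5 were higher and 3 lower at P5. Pvalb, not tested, was listed at 0 at P3 and was at 0.0456 FPKM at P5, which does not show that interneurons of that type were absent. The 8 microglia markers summed to 15.5 and 118 FPKM, 8 of 8 higher, and the 8 endothelial and mural markers to 915 and 947, nearly all of it from Rgs5 (911 and 905). The other 7 of that list summed to 4.55 and 41.5 FPKM, and of 7 tested markers 5 were higher and 2 lower at P5, with Tek listed at 0 at P3. Cuffdiff called 0 markers in each of these lists at q = 0.05. Of all tested genes above 0 at both ages, 55.6% were higher at P5. The microglia markers had a median of only 0.338 FPKM at P3, beside 11.4 at P5, so their ratios rest on low values. The part of these cells in the levels of the 10 genes was not tested.

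**Figure D5:**
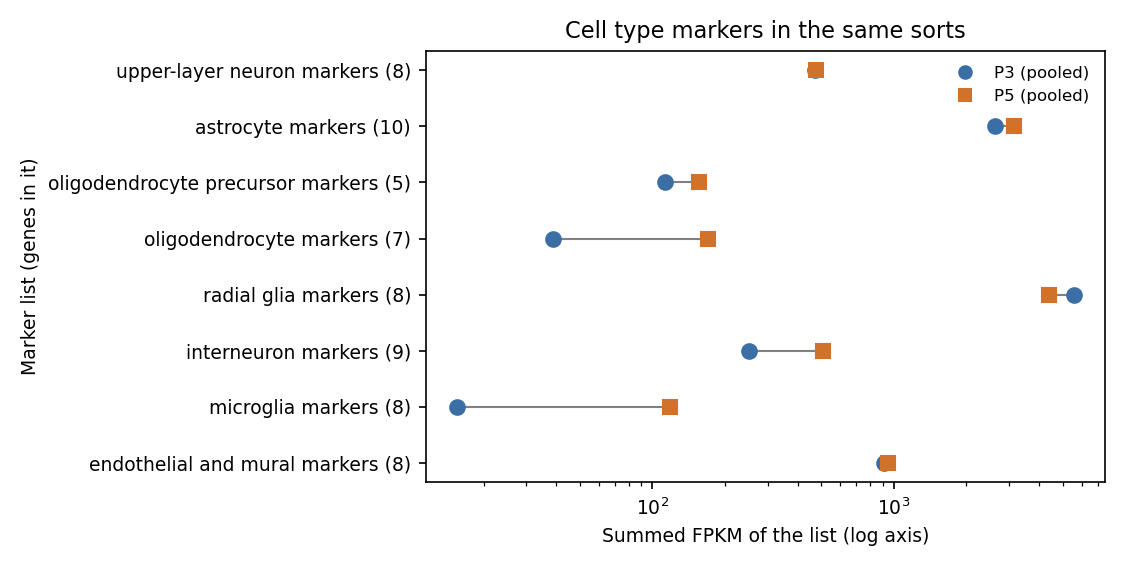
Summed FPKM (log axis) of 8 lists of cell type markers at P3 (blue circles) and P5 (orange squares), 1 pooled value per age, with the number of genes in brackets. The sum for radial glia markers was lower at P5 and the other 7 were higher, that for upper-layer neuron markers only slightly (471 and 476 FPKM). In that list 3 markers were higher and 5 lower at P5, and without Mef2c and Rorb the sum was 196 and 98.98 FPKM. The flat sum for endothelial and mural markers is nearly all Rgs5, and sums of different lists are not comparable with each other.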

How the data were processed

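RNA was sequenced from cells sorted by GFP as upper-layer cortical neurons at P3 and P5, with 3 samples at each age, told apart by title. TopHat, Cuffdiff 2.02 and genome build mm9 are named in the submitters' processing notes. Annotation, strandedness and read number: not given in the sources used here. Per the file headers, the authors deposited 1 FPKM value per age and gene, pooled by Cuffdiff, with a p-value and a q-value. The deposited log2 ratio and test statistic were handled as a score, because they hold a placeholder where 1 age is at 0. Loci start at base 0 in the deposited table and are printed counted from 1. No column of per-sample values was used, and library depth is unknown.

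The authors' Cuffdiff test, with q over all tested genes, was the main test. The deposited p-values matched a two-sided normal test of the statistic to within 2.8e-06 over 12313 genes, so the standard error of a log2 ratio was taken as its size over that of the statistic, and 95% intervals as 1.96 standard errors. This step was run on simulated data drawn with these same standard errors. That checks the arithmetic only, not whether the deposited statistic gives correct standard errors. The robust spread of the statistic was 0.66, less than that of a standard normal, so these errors and intervals may be too wide. Named were all 10 members, in each partner list the 3 tested genes with the highest mean FPKM and the 2 with the lowest p, and in each marker list the 2 with the highest mean and any at 0. The 10 genes and all lists were chosen with earlier results of these data known. Python 3.11.15, pandas 2.3.3 and scipy 1.17.1 were used.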

Additional observations from a re-analysis of the deposited data

How the results depend on the processing

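No paired analysis was possible because the deposited table holds 1 pooled value per age, and for the same reason no replicate could be left out. The count of 0 matrix genes called, and of 0 in each of the 5 partner lists, was the same with q at 0.01, with p-values adjusted again over all tested genes or over genes that reached 1 FPKM at P3 or P5, and with the statistic divided by its robust spread of 0.66. A q of 0.01 could not give another count, as no deposited q lay below 0.999988. Adjusting again over all tested genes used the same genes and p-values as the deposited q. Division by the robust spread called 3 of all genes against 0, and gave Hapln1, with the lowest p of the matrix genes, an unadjusted p of 0.0304. This division lowers the p of every gene, and the share of all genes under 0.05 after it is not given here. Centring the ratios on the median of all tested genes turned the direction of Vcan (-0.091) and Tnc (-0.075), since both had ratios below that median of 0.13. The other 19 ratios recomputed for single matrix genes kept their direction. For those with the same FPKM added at both ages this was fixed in advance, as only centring can turn a direction. Adding 1 FPKM to both values brought Acan from 3.43 to 0.61 and Hapln1 from 2.60 to 1.77, as both rest on low values. The median log2 ratio of 0.45 was 0.32 with 1 FPKM added, 0.34 without the gene under 1 FPKM at both ages, 0.32 when centred and 1.11 as a mean. Since depth is unknown, counting error cannot be given for the low genes.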
